A study of Homo sapiens with 4 samples.

Results

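The regions described here are H3K9la regions found in both peak lists of the study at an end of a single protein-coding gene in KYSE30 cells. A record of the sg3 list was a member when it lay on chromosomes 1 to 22 or X, was narrower than 5000 bases, overlapped exactly 1 record of the V2 list, and had its summit within 1 kb of an end of exactly 1 RefSeq protein-coding gene. There were 3845 members among the 56875 sg3 records, or 6.76%, and they lay at the ends of 3378 genes. The members were thus chosen by measured values, namely the positions of the regions in both peak lists, so the overlap of the lists, the nearness of a summit to a gene end and the upper limit on sg3 width are properties of the choice and not results.

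H3K9la is histone H3 with a lactoyl group on lysine 9, a mark whose acyl group derives from lactate, the end product of glycolysis. Lysine acylation of histone tails is known mostly from the nucleosomes on either side of active transcription starts and from enhancers, while the start itself is often kept free of nucleosomes. SIRT3, which the series title presents as an eraser of H3K9la, is a sirtuin best known as a deacylase of mitochondria.

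KYSE30 is an established line of oesophageal squamous cell carcinoma cells. The study has 4 samples, namely 1 ChIP library made with an antibody to H3K9la and 1 input library in the sg3 arm, and the same in the V2 arm. The sources used here do not explain the names sg3 and V2. With 1 ChIP library per arm and no replicates, each difference between sg3 and V2 compares 2 libraries and not 2 conditions, no test was possible, and read depth is not stated. The V2 peak list is deposited with the input sample of that arm. Of 28 genes of squamous epithelium, 27 had an sg3 region and 24 had a V2 region reaching within 1 kb of an end. KLF5, a transcription factor of squamous cells, had neither. TP63, the p63 regulator of squamous identity, KRT5, a basal keratin, and IVL, the envelope protein involucrin, had an sg3 region and no V2 region there. Over all protein-coding genes, 47.2% had such an sg3 region and 28.8% such a V2 region. An sg3 region also reached 24 of 24 translation factors, 25 of 26 cell cycle genes and 18 of 23 genes of glycolysis and lactate transport. A high count is thus not particular to squamous genes.

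Most members sat beside the transcription start, and the starts themselves were often uncovered. The sequences of 5 starts are shown because each lies between or beside regions described in the next paragraphs. Each is the 250 bases before the RefSeq start on the strand of the gene, 5′ to 3′, from RefSeq on GRCh38.p14. KLF6, a zinc-finger factor induced early by growth signals, is at chr10:3785210-3785459 on the minus strand. TRA2B, a splicing regulator, is at chr3:185938015-185938264 on the minus strand. EEF1A1, which delivers aminoacyl-tRNA to the ribosome, is at chr6:73521033-73521282 on the minus strand. SEC23B, a coat protein of vesicles leaving the endoplasmic reticulum, is at chr20:18507298-18507547 on the plus strand. PTPRU, a receptor tyrosine phosphatase, is at chr1:29236272-29236521 on the plus strand. Capitals mark non-overlapping matches on either strand to GGGCGG (the GC box), CCAAT (the CCAAT box), CACGTG (the E-box), CCGGAAG (an ETS motif) or TGACGTCA (the cyclic AMP response element). A match is a run of letters, not a shown binding site.
KLF6: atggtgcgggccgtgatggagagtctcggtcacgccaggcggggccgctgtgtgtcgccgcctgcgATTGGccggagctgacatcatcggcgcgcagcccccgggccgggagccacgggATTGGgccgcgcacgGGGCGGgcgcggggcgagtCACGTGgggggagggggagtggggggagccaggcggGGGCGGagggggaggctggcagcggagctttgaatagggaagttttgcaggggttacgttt
TRA2B: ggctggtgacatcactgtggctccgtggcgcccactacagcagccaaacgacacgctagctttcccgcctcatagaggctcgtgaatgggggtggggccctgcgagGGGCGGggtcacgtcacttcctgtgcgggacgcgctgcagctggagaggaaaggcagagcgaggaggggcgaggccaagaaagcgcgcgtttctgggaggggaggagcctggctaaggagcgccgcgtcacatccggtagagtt
EEF1A1: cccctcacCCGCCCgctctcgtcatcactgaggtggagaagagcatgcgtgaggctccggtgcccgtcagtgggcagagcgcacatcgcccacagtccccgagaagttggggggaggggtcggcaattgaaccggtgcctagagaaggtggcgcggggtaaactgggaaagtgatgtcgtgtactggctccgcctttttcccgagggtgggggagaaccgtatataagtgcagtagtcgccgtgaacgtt
SEC23B: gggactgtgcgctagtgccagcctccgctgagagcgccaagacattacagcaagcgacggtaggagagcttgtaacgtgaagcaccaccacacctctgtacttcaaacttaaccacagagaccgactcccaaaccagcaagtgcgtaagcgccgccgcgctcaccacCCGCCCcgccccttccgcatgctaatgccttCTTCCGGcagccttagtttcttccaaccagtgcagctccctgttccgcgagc
PTPRU: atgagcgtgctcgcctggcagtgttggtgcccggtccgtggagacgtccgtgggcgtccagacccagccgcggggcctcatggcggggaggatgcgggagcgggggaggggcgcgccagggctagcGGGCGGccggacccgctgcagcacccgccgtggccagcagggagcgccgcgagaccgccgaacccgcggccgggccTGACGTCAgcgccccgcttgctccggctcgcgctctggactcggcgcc
All 250 bases of KLF6, TRA2B and EEF1A1 lay outside every sg3 region and every V2 region. At SEC23B all 250 bases lay outside V2 regions and 217 lay outside sg3 regions, and at PTPRU all 250 lay outside V2 regions and 117 outside sg3 regions. KLF6 held 2 GC boxes, 2 CCAAT matches and 1 E-box. TRA2B and EEF1A1 each held 1 GC box, and PTPRU held 1 GC box and 1 TGACGTCA. SEC23B held 1 ETS match and, without overlaps, 1 GC box. A further GC box match there overlaps the marked one by 1 base and is not in capitals.

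Where the strand of the gene was known and 1 end was in reach, 2876 of 3096 members lay at the 5′ end, a share of 92.9% (exact Clopper-Pearson 95% interval, 91.9% to 93.8%). The other 220 lay at the 3′ end. The remaining 749 members had a gene of unknown strand or reached both ends. Intervals here and below cover counting error only, since regions of 1 library are not replicates. Of the 2876 members at a 5′ end, 2150 had the sg3 summit downstream of the start, inside the gene, a share of 74.8% (73.1% to 76.3%).

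The summits were bunched a short way into the gene. The sg3 summit lay 200 to 500 bases downstream of the start at 1501 of the 2876 members, or 52.2% (50.3% to 54.0%), and the V2 summit did so at 52.3%. Only 7.72% of sg3 summits and 7.20% of V2 summits lay in the band of the same width upstream. Within 100 bases of the start lay 76 sg3 summits, or 2.64%. By bins of 100 bases, the fullest sg3 bin was 300 to 400 bases downstream with 23.7% of summits, against 23.4% in V2, and the bin of 100 bases just upstream of the start held 0.800% in sg3 and 0.695% in V2. The median summit of members stood at +289 (284 to 295) in sg3 and +283 (276 to 291) in V2, and that of 2859 sg3 regions at a single 5′ end with no V2 partner at +255 (247 to 261). OXSR1, a kinase of the cell volume response, is an example, with its summit at +272 in sg3 and +310 in V2.

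**Figure D1:**
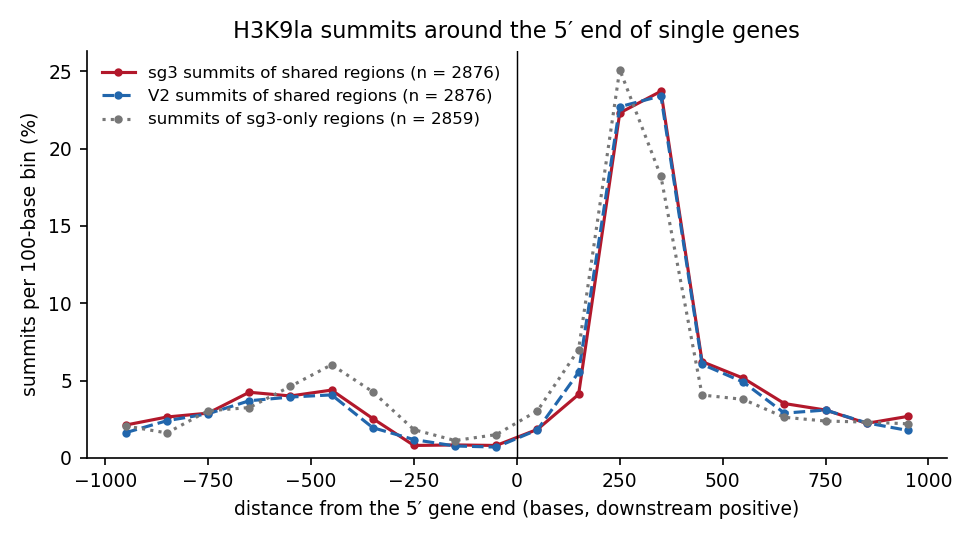
Share of summits (y axis, percent) by position from the gene start (x axis, bases, downstream positive) in bins of 100 bases, for the members at a 5′ end in sg3 and in V2 and for sg3-only regions. The sg3 and V2 lines follow each other, with 23.7% and 23.4% of summits 300 to 400 bases downstream and under 1% in the bin just before the start.

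The sg3 and V2 summits lay on the same side of the start at 2790 of 2876 members, or 97.0%. At 52 members the sg3 summit lay upstream and the V2 summit downstream, and at 34 the order was turned. The sg3 region covered the start at 37.3% of members (35.5% to 39.1%), and its V2 partner covered it at 20.2% (18.8% to 21.8%). Members with the summit downstream had a median sg3 −log10 q of 35.0 (34.0 to 36.2), against 26.4 (25.0 to 28.2) for those with the summit upstream, while their sg3 widths were close, at 817 and 812 bases. An end of a long noncoding RNA gene lay within 1 kb at 21.9% (18.9% to 25.1%) of upstream summits and 25.8% (23.9% to 27.7%) of downstream summits.

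At 291 of 2574 genes with a member at the start, or 11.3%, a member lay on each side of it. In 10 of these both members overlapped the same V2 record, and in 281 each had its own. At those 281 genes the uncovered gap across the start had a median of 338 bases in sg3 (308 to 373, range 144 to 1316) and 493 bases in V2 (463 to 521, range 135 to 1418). The gap was shorter in sg3 at 245 of the 281 genes, or 87.2% (82.7% to 90.9%). The summits had a median spacing of 1011 bases in sg3 (984 to 1086) and 1015 bases in V2 (958 to 1071). Fold enrichment was higher on the downstream side at 54.1% (48.1% to 60.0%) of these genes in sg3 and at 44.5% (38.6% to 50.5%) in V2. Both shares are over the same 281 genes, so their intervals cannot judge the difference, which was not tested. The same side was higher in both lists at 65.5% (59.6% to 71.0%). Starts with an sg3 summit on each side were commoner when any sg3 region was counted. Another sg3 summit lay on the opposite side, within 1 kb of the start, at 66.0% of members with the summit upstream. With the summit downstream it did so at 29.2%. For sg3-only regions the shares were 63.5% and 19.6%.

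Individual starts had this form. KLF6 had sg3 summits at −601 and +325, with fold enrichments of 7.47 and 8.68 in sg3 and 6.17 and 5.86 in V2, and a gap of 337 bases in sg3 against 456 bases in V2. TRA2B had sg3 summits at −633 and +226 and a gap of 300 bases in sg3 against 368 in V2. EEF1A1 had summits at −670 and +413, fold enrichments of 14.1 and 7.49 in sg3 and 13.6 and 4.68 in V2, and a gap of 496 bases in sg3 against 554 in V2. EEF1A1 has near-identical copies in the genome, so its values are uncertain: how reads matching several places were counted is not stated. KDM2A, a demethylase of histone H3 lysine 36, had a gap of 229 bases in sg3 against 388 in V2. FBXW7, which selects proteins for ubiquitin ligation, had 248 bases in sg3 against 310 in V2, and FOSL2, a Fos-family subunit of AP-1, had 278 against 356. SEC23B had a gap of 290 bases in sg3 against 1418 in V2, the widest V2 gap of all. Its downstream sg3 region of 1551 bases was paired with a V2 region of 416 bases, with summits at +545 in sg3 and +1316 in V2. ITGB1, the integrin beta-1 chain, went the other way, with a gap of 286 bases in sg3 against 138 in V2.

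**Figure D2:**
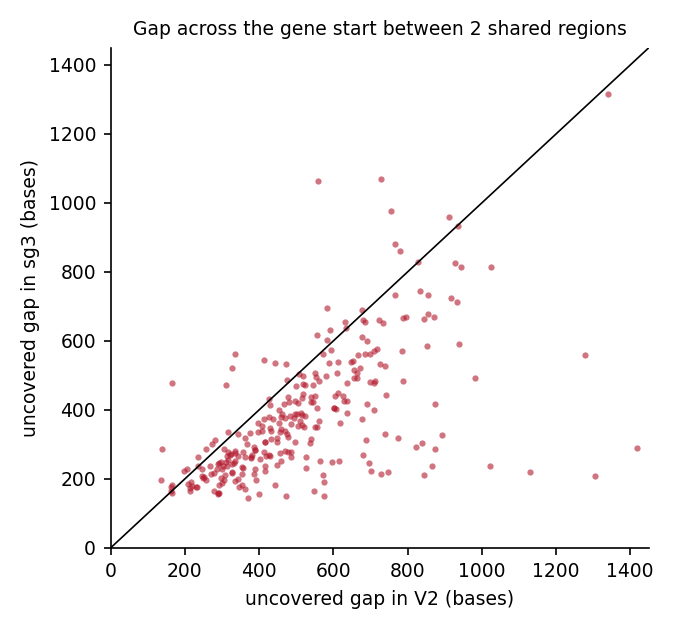
Uncovered gap across the start in sg3 (y axis, bases) against that in V2 (x axis, bases) at the genes with a member on each side of the start, each in its own V2 record, 1 point per gene. Points under the line of equal gaps have the shorter gap in sg3. The gap was shorter in sg3 at 245 of 281 genes, and the medians were 338 bases in sg3 and 493 bases in V2.

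Members were wider in sg3 than their partners in V2, around nearly the same summit. The median member was 818 bases wide in sg3 (interquartile range 610 to 1193) and 545 in V2 (424 to 773). The ratio of sg3 to V2 width had a median of 1.37 and ran from 0.196 to 8.21. The sg3 region was the wider at 91.6% of members (90.7% to 92.5%), and the V2 region lay wholly inside it at 77.6%. Only 1.90% of sg3 regions lay wholly inside their V2 partner. The summits were a median of 34 bases apart, at most 50 bases apart at 63.6% of members, over 200 bases apart at 10.3%, and at the same base at 66 members. At 5′ ends the sg3 region reached past its partner by a median of 59 bases upstream, doing so at 85.8% of members, and by 110 bases downstream, doing so at 91.6%.

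**Figure D3:**
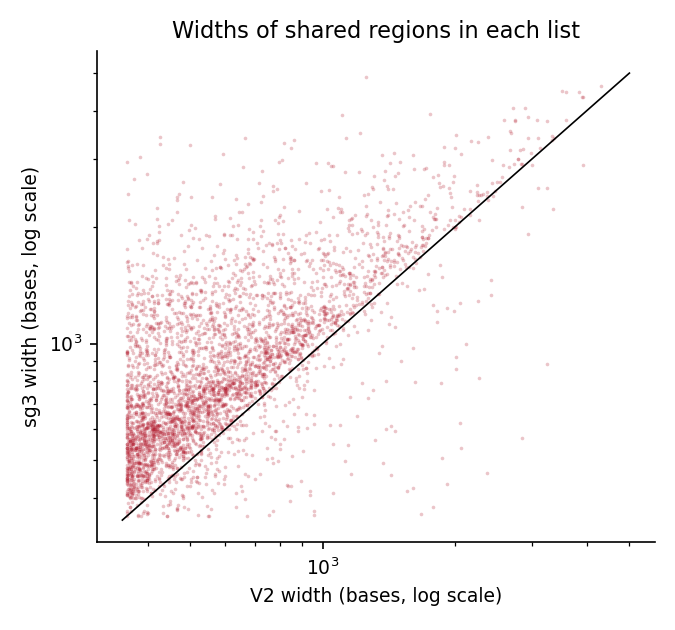
Width of each member in sg3 (y axis, bases, log scale) against that of its V2 partner (x axis, bases, log scale), 1 point per member. Most points lie above the line of equal widths, on the side of wider sg3 regions, which held 91.6% of members.

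Shared regions away from gene ends were less often wider in sg3. Among 9608 shared regions in gene bodies the sg3 region was the wider at 72.5% (71.6% to 73.4%), and outside protein-coding genes at 69.8% of 10853. The 707 shared regions at ends of several genes had 93.2%. By end, the share was 92.8% at 5′ ends and 77.7% (71.6% to 83.0%) at 3′ ends. Members also had a higher sg3 −log10 q than shared regions in gene bodies, with medians of 31.2 and 17.3. Among pairs with a V2 −log10 q of 10 to 20, 91.4% of members and 69.6% of gene-body regions were wider in sg3, and at 20 to 40 the shares were 93.9% and 71.2%. Binned by sg3 −log10 q instead, the shares were 85.5% and 71.6% at 10 to 20, and 94.4% and 84.0% at 20 to 40. Summits at most 50 bases apart were found at 63.2% (60.7% to 65.7%) of members and 53.8% (52.2% to 55.5%) of gene-body regions with a V2 −log10 q of 10 to 20, and at 73.8% (71.1% to 76.4%) and 60.1% (57.9% to 62.3%) with 20 to 40. By sg3 −log10 q the shares were 49.9% (46.2% to 53.5%) and 47.4% (45.7% to 49.1%) at 10 to 20, with overlapping intervals, and 63.3% (60.8% to 65.7%) and 55.0% (53.1% to 56.9%) at 20 to 40.

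**Figure D4:**
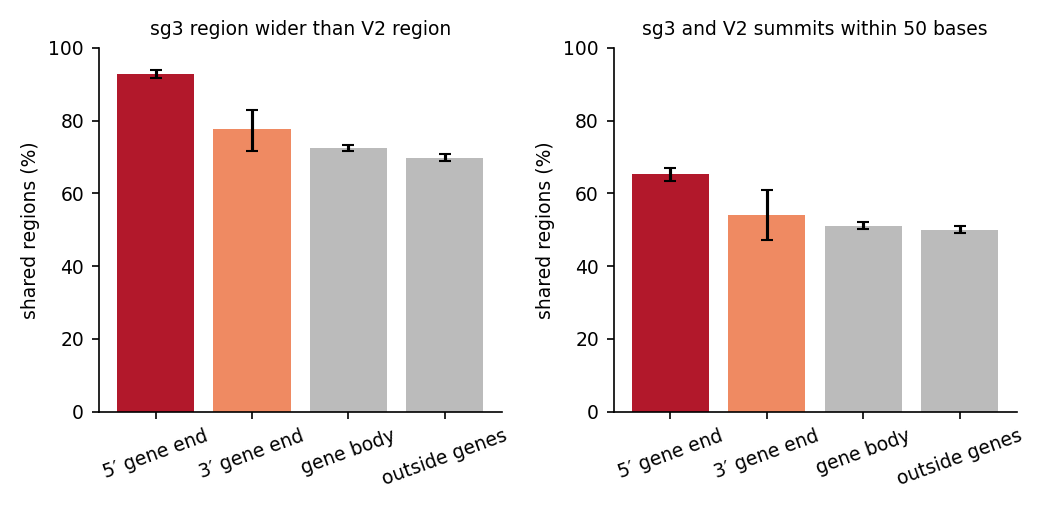
Share of shared regions (y axes, percent, with exact 95% intervals) that were wider in sg3 than in V2, left, and whose sg3 and V2 summits were at most 50 bases apart, right, by place in the genome (x axes). Of the 4 places drawn, 5′ gene ends stood highest, at 92.8% and 65.3%. Shared regions at ends of several genes are not drawn and had 93.2% and 68.0%.

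Fold enrichments, the authors' ratio of ChIP to background at the summit, and −log10 q values are compared here with other regions of the same list. Where values of both lists are printed for a region, they are not known to share a scale, and no difference is read from them. Genes named per gene list were picked by sg3 −log10 q, which favours high sg3 values. The sg3 fold enrichment of members had a median of 5.88 (range 2.02 to 24.1), against 5.31 in gene bodies. The V2 fold enrichment of members had a median of 4.48 (range 1.60 to 20.2), against 5.33 in gene bodies. By fold, members were thus above the gene-body regions in the sg3 list and below them in the V2 list. By −log10 q they were above them in both, with medians of 31.2 and 17.3 in sg3 and of 16.1 (15.8 to 16.6) and 12.7 (12.6 to 13.0) in V2. Among pairs with a V2 −log10 q of 10 to 20, the sg3 −log10 q had a median of 28.4 (27.6 to 29.2) for members and 16.5 (16.2 to 17.0) for gene bodies, the sg3 fold 5.49 and 5.03, and the V2 fold 4.19 and 5.57. Across the 3845 members, Spearman's rho between the lists was 0.622 for fold, 0.613 for width and 0.739 for −log10 q, against 0.472, 0.524 and 0.603 across the 9608 gene-body regions. These describe regions of 2 libraries that share their genome positions.

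The strongest members by sg3 −log10 q were at SH3TC1, EPN2, P3H4, ACTB, KRTCAP3, RPS3A, CYTH1 and CD55. SH3TC1, on chromosome 4 with the sg3 region from 8181175 to 8183405 (hg38), reached an 18.3-fold enrichment in sg3, with summits at +945 in sg3 and +932 in V2. EPN2, an epsin of clathrin-coated pits, had 9.46 in sg3 and 7.92 in V2 over regions of 2475 and 2169 bases. P3H4, of the collagen hydroxylation complex, had 16.8 in sg3 and 15.5 in V2. CD55, a cell-surface inhibitor of complement on chromosome 1 with the sg3 region from 207321614 to 207322675, had a −log10 q of 129 in sg3 and 42.7 in V2 with summits 3 bases apart, at +316 and +313. ACTB, cytoplasmic beta-actin, had 9.74 in sg3 and 7.80 in V2, with the sg3 summit 395 bases beyond its higher-coordinate end. RPS3A, a protein of the small ribosomal subunit, had 21.8 in sg3 and 20.2 in V2, the highest V2 fold of any member, with summits at −870 and −850, and processed copies of this gene make its value uncertain. CYTH1, a guanine nucleotide exchange factor for ARF proteins on chromosome 17 with the sg3 region from 78782602 to 78784101, had 14.7 in sg3 and 11.6 in V2 with summits 2 bases apart.

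By fold enrichment the highest sg3 members were at SHROOM3, C1orf116, OXSR1 and RPS3A. SHROOM3, which shapes epithelial cells through actin, had its sg3 region on chromosome 4 from 76783800 to 76784507. It had 24.1 in sg3 and 9.47 in V2, with its summit 887 bases past the 3′ end in sg3 and 946 in V2. C1orf116 had 23.9 in sg3 and 10.0 in V2 near its 3′ end, with the summit 659 bases inside the gene in sg3. OXSR1 had 23.8 in sg3 and 19.1 in V2 at its start, on chromosome 3 with the sg3 region from 38163716 to 38164922. The smallest sg3 width, 359 bases, was shared by 8 members, among them HTR1D, GPN2 and RELB, whose V2 partners were 442, 379 and 550 bases wide. That width is the minimum of all records in both lists, so it is not particular to these genes. RELB, an NF-kappa-B subunit, was enriched 3.34-fold in sg3 and 7.84-fold in V2.

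Summits parted most at PDLIM1, LIMS4 and PTPRU. PDLIM1, a PDZ and LIM protein of the actin cytoskeleton, had an sg3 region on chromosome 10 from 95289191 to 95293687 whose V2 partner spans 95290001 to 95293508. It had its sg3 summit at +384 and its V2 summit at −2128, which are 2512 bases apart, with fold enrichments of 10.1 in sg3 and 17.7 in V2. PTPRU, on chromosome 1 with an sg3 region from 29236389 to 29237724 whose V2 partner spans 29236595 to 29239009, had its sg3 summit at +204 and its V2 summit at +1979, with fold enrichments of 8.16 in sg3 and 8.68 in V2. LIMS4 had summits at +312 in sg3 and −1865 in V2, and it has a near-identical copy, so its values are uncertain. The V2 summit also lay within 1 kb of an end of that gene, and of no other, at 3731 members, or 97.0%.

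The largest ratios of sg3 to V2 width were 8.21 at FAM83G, 8.04 at GEM and 7.91 at SLC10A3. FAM83G, an anchor of casein kinase, had 2946 bases in sg3 and 359 in V2 near its 3′ end, with summits 15 bases apart. Its V2 width is the minimum of the V2 list. SLC10A3 had 3039 bases in sg3 and 384 in V2 with summits 6 bases apart at its start. GEM, a small GTP-binding protein, had 3424 bases in sg3 and 426 in V2, with summits 835 bases apart. The smallest ratios were 0.196 at UQCC4, 0.201 at ELK3 and 0.213 at MAP4K4. ELK3, an ETS factor, had 571 bases in sg3 and 2840 in V2, and fold enrichments of 3.78 in sg3 and 7.29 in V2. MAP4K4, a kinase upstream of JNK, had 379 bases in sg3 and 1781 in V2 with summits 47 bases apart. At ELK3 and MAP4K4 the same V2 record also overlapped another member across the start, with sg3 folds of 9.07 and 4.49. These ratios thus set 1 of 2 sg3 regions against a single V2 region. Among all members, 16 V2 records were paired with 2 or more.

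Members at 3′ ends differed in form from those at starts. Their sg3 −log10 q had a median of 17.4 at 3′ ends and 32.6 at 5′ ends, with interquartile ranges of 10.5 to 30.2 and 21.1 to 47.3. The sg3 summit lay past the end of the gene at 131 of 220, or 59.5%, and inside it at 40.5% (33.9% to 47.3%). An end of a long noncoding RNA gene lay within 1 kb at 8.64% of 3′ members and 24.8% of 5′ members. Gene lengths were counted once per region and not once per gene. Genes of 3′ members were shorter, with a median length of 17671 bases (14160 to 22852), against 34748 bases (33069 to 37223) for 5′ members. The order was the same for sg3-only regions, at 18208 bases for 3′ ends and 30476 for 5′ ends. The median over all protein-coding genes, each counted once, was 24170 bases. KRTCAP3, a keratinocyte-associated protein, had the highest sg3 −log10 q of the 3′ members, at 135, with fold enrichments of 12.4 in sg3 and 8.90 in V2 and its summit 401 bases past the end in sg3 and 379 in V2.

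Of 8262 sg3 regions under 5000 bases at a single gene end, 46.5% were members, and 45.4% of all sg3 records on these chromosomes overlapped exactly 1 V2 record. The rule used this contrast, and nothing is read from either share. A further 3983 had no V2 partner and 434 had several. The sg3-only regions were narrower and weaker, at a median width of 497 bases and sg3 −log10 q of 12.6, against 818 bases and 31.2 in members. The 5′ share was 92.9% for members and 88.7% (87.6% to 89.8%) for sg3-only regions, but within an sg3 −log10 q of 10 to 20 it was 87.2% (84.3% to 89.8%) and 90.7% (89.0% to 92.2%), and within 20 to 40 it was 94.6% (93.2% to 95.8%) and 96.6% (94.9% to 97.8%). The share with the summit inside the gene, 74.8% for members and 70.7% (69.0% to 72.4%) for sg3-only regions, turned in the same way, at 64.0% (59.7% to 68.1%) and 70.0% (67.4% to 72.6%) within 10 to 20, and 76.1% (73.6% to 78.6%) and 80.9% (77.7% to 83.9%) within 20 to 40. Thus the order of the pooled shares was not kept at matched strength, with overlapping intervals in each bin. At 689 genes a member and an sg3-only region lay at the same gene.

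The promoters of genes with a 5′ member were rich in GC and CpG. Over the 300 bases around the RefSeq start, 250 before and 50 after, the median GC content was 67.0% at 2573 genes with a member, 64.7% at 2129 genes with an sg3-only region and no member, 59.3% at 7985 genes with no region within 1 kb of an end, and 62.7% over all 15811 promoters. The median ratio of observed to expected CpG was 0.874 with a member, 0.846 with an sg3-only region, 0.574 with none and 0.763 over all. GGGCGG was found in 75.2% of member promoters, 70.4% of sg3-only promoters and 58.5% of all promoters. CCGGAAG was in 19.8% with a member, in 425 of 2129 with an sg3-only region and in 14.2% of all, and the NRF1 motif in 12.9%, 12.9% and 8.60%, so members and sg3-only promoters lay close together in both. TATAAA (the TATA box) was found in 6.02% of member promoters, 6.25% of sg3-only ones and 9.64% of all, and CCAAT in 34.6%, 38.3% and 36.3%. TGANTCA (the AP-1 motif) was in 4.82% of member promoters, 3.99% of sg3-only ones and 5.76% of all, and CACGTG in 10.6%, 10.3% and 8.87%. Both strands were searched, GC box and NRF1 matches can overlap, and the motifs were chosen with no test.

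Restricting to CpG-rich promoters brought the GC box shares close together but not those of every motif. Among promoters with an observed to expected CpG of at least 0.75, GGGCGG was found in 81.8% of member promoters, 77.9% of sg3-only ones, 80.4% of those with no region and 79.6% of all. CCGGAAG was in 21.1% of member promoters there, 23.7% of sg3-only ones and 14.5% of those with no region, and the NRF1 motif in 16.2%, 16.3% and 12.0%, with no overlap between the intervals of members and of promoters with no region for either motif. TATAAA was in 5.35% of member promoters there, 4.57% of sg3-only ones, 4.89% of those with no region and 4.57% of all. For TGANTCA the shares were 3.08%, 1.88%, 2.54% and 2.90%. The lower pooled shares of these 2 motifs in members than over all promoters were thus not kept there. TGACGTCA was found there at 6.07% with a member, 3.63% with an sg3-only region, 2.15% with no region and 4.00% over all. Over all promoters TGACGTCA was in 5.44% (4.60% to 6.39%) of member promoters and 2.91% (2.24% to 3.72%) of sg3-only ones. Within an sg3 −log10 q of 20 to 40 the shares were 5.13% (3.88% to 6.64%) and 3.37% (2.01% to 5.28%), whose intervals overlap. For CCAAT the shares within 20 to 40 were 33.5% (30.6% to 36.4%) and 42.7% (38.5% to 47.0%), with no overlap. Within 10 to 20 they were 33.9% (29.4% to 38.7%) and 38.6% (35.4% to 41.8%), with overlap. The part of CpG content and region strength in these shares was not tested.

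Of all 19974 protein-coding genes 16.9% had a member. In 15 functional lists pooled, 146 of 377 genes had a member, or 38.7% (33.8% to 43.8%). In 4 lists of markers of liver, neuron, blood and muscle, 4 of 60 genes had one, or 6.67% (1.85% to 16.2%), and in liver 0 of 15 had one, which allows up to 21.8%. Any sg3 region reached within 1 kb of an end of 47.2% of all genes, and any V2 region of 28.8%. In the functional lists any sg3 region did so at between 15 of 21 genes (hypoxia and angiogenesis) and 24 of 24 (translation factors). In the marker lists it did so at between 2 of 15 and 5 of 15. The lists thus differed in having any sg3 region, and not only in members. They were chosen with earlier results of these data known. Expression was not measured here, and the lists are described by counts with no test of their own. Of 178 members at listed genes, 167 were wider in sg3.

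**Figure D5:**
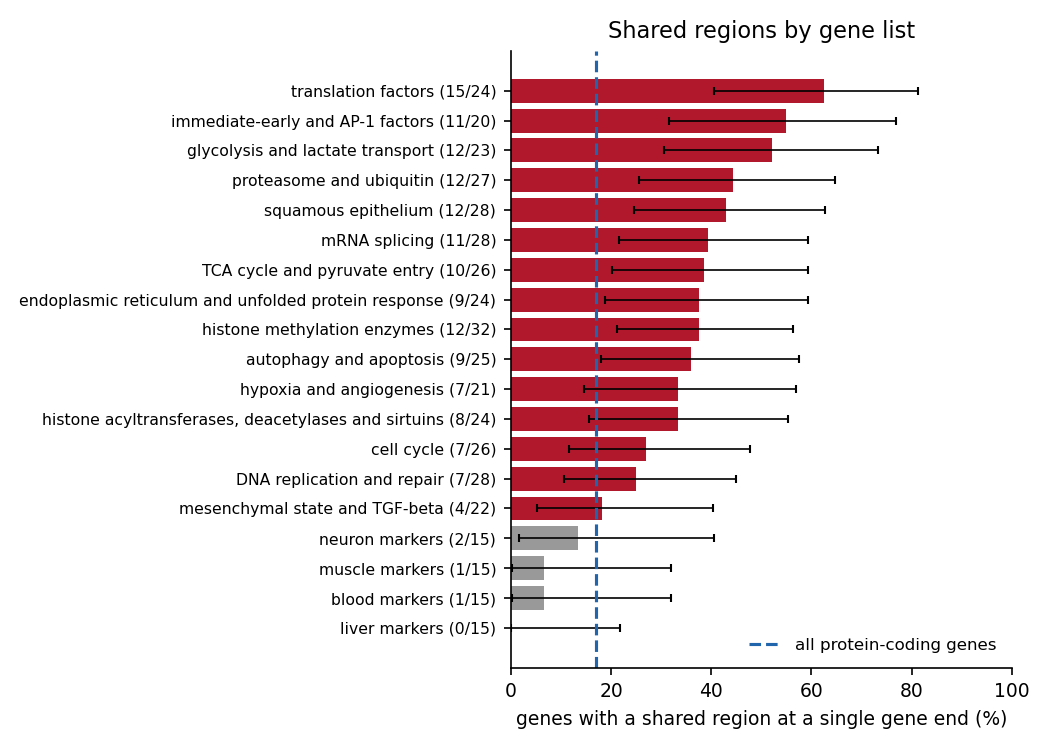
Share of genes with a member (percent) in each gene list, with exact 95% intervals, and the 16.9% over all protein-coding genes as a line. Translation factors stand highest at 62.5%, and the marker lists of other cell types lie at or below 13.3%.

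Genes of glycolysis and lactate transport, the source and route of lactate, had a member at 12 of 23, or 52.2%, with median folds of 5.38 in sg3 and 3.98 in V2 over 16 members. SLC16A3, the lactate exporter MCT4, had one of the widest members, 4644 bases in sg3 and 4298 in V2, with fold enrichments of 9.58 in sg3 and 5.29 in V2. ALDOA, the aldolase of glycolysis, had 6.70 in sg3 and 4.01 in V2 with summits at +612 and +560. ENO1, the enolase, had 5.42 in sg3 and 4.30 in V2 upstream of its start, at −452 and −460. Genes of the TCA cycle and pyruvate entry had a member at 10 of 26, or 38.5%, and their members were narrow, with a median width of 586 bases in sg3 and 446 in V2. SDHC, a membrane subunit of succinate dehydrogenase, had 12.7 in sg3 and 7.14 in V2. PDHA1, of pyruvate dehydrogenase, had 9.77 in sg3 and 5.47 in V2 with summits at +287 and +290, and SUCLA2, of succinyl-CoA synthetase, had 9.24 in sg3 and 5.12 in V2.

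The list of histone acyltransferases, deacetylases and sirtuins includes the known writers and erasers of lysine acylation. It had a member at 8 of 24 genes, or 33.3% (15.6% to 55.3%), an interval that holds the 16.9% over all genes. EP300, an acyltransferase, had regions of almost equal width, 1342 bases in sg3 and 1343 in V2, upstream of its start, with fold enrichments of 8.95 in sg3 and 6.62 in V2. CREBBP, its paralogue, had 5.96 in sg3 and 3.51 in V2 with summits at −450 and −449, 1434 bases wide in sg3 and 754 in V2. HDAC5, a class II deacetylase, had 6.69 in sg3 and 6.52 in V2. The histone methylation enzymes had a member at 12 of 32, or 37.5%. KDM2A had 9.73 in sg3 and 4.65 in V2 downstream of its start, and 6.68 in sg3 and 7.21 in V2 upstream. DOT1L, the methyltransferase of histone H3 lysine 79, had 11.1 in sg3 and 7.23 in V2, and KDM4A, a demethylase, had 7.71 in sg3 and 4.44 in V2.

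The squamous epithelium genes had a member at 12 of 28, or 42.9%, and the members had median folds of 7.21 in sg3 and 5.29 in V2. SFN, the 14-3-3 sigma protein, had 9.24 in sg3 and 4.76 in V2 in a short gene whose ends were both in reach. KRT16, a keratin of stressed epithelium, had 2 members, with 9.21 and 7.21 in sg3 and 5.37 and 5.27 in V2, but it has close keratin paralogues and pseudogenes and is uncertain. The mesenchymal and TGF-beta genes had a member at 4 of 22, or 18.2%, which is near the share over all genes.

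The immediate-early and AP-1 genes had a member at 11 of 20, or 55.0%. Beside KLF6, FOSL2 had its downstream summit at +906 in sg3 and +358 in V2, with fold enrichments of 8.66 in sg3 and 4.45 in V2. FOSL1, a Fos-family factor, had 7.66 in sg3 and 3.02 in V2. The hypoxia and angiogenesis genes had a member at 7 of 21, or 33.3% (14.6% to 57.0%), an interval that holds the 16.9% over all genes. The autophagy and apoptosis genes had one at 9 of 25, or 36.0% (18.0% to 57.5%). GABARAPL1, an ATG8-family protein of autophagosomes, had 10.4 in sg3 and 8.29 in V2, and BCL2L1, an inhibitor of apoptosis, had 6.97 in sg3 and 4.54 in V2 with both summits at +618.

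Among genes of protein and RNA production, the translation factors had a member at 15 of 24, or 62.5%, the highest share of the 19 lists. ETF1, the release factor that ends translation, had 11.1 in sg3 and 9.15 in V2, with summits at +485 and +422. EIF3A, the largest subunit of initiation factor eIF3, had 8.19 in sg3 and 4.63 in V2. The splicing genes had a member at 11 of 28, or 39.3%, with the highest median sg3 fold enrichment of the functional lists, 8.37. Their median V2 fold enrichment was 5.68. HNRNPD, an RNA-binding protein that controls mRNA decay, had 12.5 in sg3 and 8.69 in V2 with summits at +366 and +368, and TRA2A had 11.8 in sg3 and 7.05 in V2. The proteasome and ubiquitin genes had a member at 12 of 27, or 44.4%. PSMC1, an ATPase of the proteasome, had 10.5 in sg3 and 7.18 in V2, and CUL3, a ubiquitin ligase scaffold, had 6.26 in sg3 and 4.19 in V2. The endoplasmic reticulum genes had a member at 9 of 24, or 37.5%. EIF2AK3, the stress kinase PERK, had 10.6 in sg3 and 7.83 in V2, and SYVN1, a ubiquitin ligase of the endoplasmic reticulum, had 5.95 in sg3 and 4.16 in V2.

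The cell cycle genes had a member at 7 of 26, or 26.9% (11.6% to 47.8%). The DNA replication and repair genes had one at 7 of 28, or 25.0% (10.7% to 44.9%). Both intervals hold the 16.9% over all genes. RB1, the retinoblastoma protein, had 7.18 in sg3 and 4.66 in V2 with the sg3 region 1231 bases wide and the V2 region 614. WEE1, a kinase that holds cells before mitosis, had 7.05 in sg3 and 5.89 in V2 with both summits at the same base. BUB1, of the spindle checkpoint, had 9.74 in sg3 and 5.63 in V2 upstream of its start. MCM3 and MCM6, subunits of the replicative helicase, had 8.18 and 6.59 in sg3, and 5.81 and 4.16 in V2.

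Members were spread over the genes and chromosomes. Of the 3378 genes, 2930 had 1 member, 429 had 2 and 19 had 3. Among the 19, ATG9B, a phospholipid scramblase of autophagy, had regions of 17.6 and 12.2 fold in sg3 and 13.1 and 7.51 in V2 on either side of its start and a weaker region at its 3′ end. SMIM14 had 14.3 and 7.79 in sg3 and 6.20 and 3.76 in V2 on either side of its start. By chromosome the share of genes with a member ran between 12.1% (10.0% to 14.5%) on X and 24.4% (19.4% to 30.0%) on 18. At the limit of 1 kb, MCMBP and EMD had summits 1000 and 999 bases from the gene end and were members, and CCT2 and RITA1, at 1001 bases, were not. At the width limit, ZBTB42 and SLC16A3, with 4882 and 4644 bases, were members, and EGFR and IFITM3, with 5054 and 5337 bases, were not.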

How the data were processed

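ChIP-seq of H3K9la was analysed from 2 deposited peak lists in the narrowPeak layout, 1 per arm, each taken as called on 1 ChIP library. Per the submitters' processing notes, the build was hg38, and the tools included MACS2 2.2.9.1, Bowtie2 2.5.1, SAMtools 1.18, Trim Galore 0.6.10 and FastQC 0.12.1. Neither the commands and control libraries nor the depth and the handling of multiply aligned reads are stated in the sources used here. The fold enrichment, a ratio at the summit, and the −log10 p and −log10 q of each region are the authors' deposited values (−log10 p was not used). Values of the 2 lists are printed side by side and ranked in Spearman's rho, but their sizes are not compared between lists. The integer score and the other deposited column, the summit offset, were the authors' as well, and only the offset was used.

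Start positions were read as counted from 0 and reported from 1. With the other reading of the summit coordinate there were 3847 members. Gene ends came from a RefSeq table of GRCh38.p14 (19974 protein-coding genes on the chromosomes used). Strand and promoter sequences came from RefSeq promoters matched by gene identifier, known for 15813 genes, or 79.2%. At 2555 genes the RefSeq start lay inside the outer gene end, which was used as the start for positions. All genes of the 19 gene lists matched by symbol. Python 3.11.15, pandas 2.3.3, NumPy 2.4.6, SciPy 1.17.1 and Matplotlib 3.10.9 were used, and the assignment of regions was tested on simulated regions.

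Shares have exact Clopper-Pearson 95% intervals and medians have order-statistic 95% intervals, both of which cover counting error only. No p-value was computed. The rule for members and the gene lists were chosen with earlier results of these data known. The named genes are the 8 members of highest sg3 −log10 q, the 5 of highest V2 −log10 q, the 4 of highest sg3 fold, the 3 widest and 3 of the narrowest (tied ones in file order), the 3 with the largest summit distance, the 3 largest and 3 smallest width ratios, up to 3 genes per list by sg3 −log10 q, those beside each limit, and 5 genes with the most members. A few of these genes are not reported here. The planned rule for printed promoters, a summit inside the promoter window, gave no usable set, so the 5 printed were chosen after their values were seen, as were ITGB1, KLF5, TP63, KRT5 and IVL in the text. Alternatives changed the −log10 q threshold, the list lengths, the overlap, the number of V2 partners, the gene-end window and the start used.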

Additional observations from a re-analysis of the deposited data

Results flagged for a closer look

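Regions outside the chromosomes used above also carried signal. The sg3 list held 1728 records, or 3.04%, on contigs other than chromosomes 1 to 22 and X, and the V2 list held 1074, or 2.66%. They came to notice because no comparison used them, and their genes are not described here.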

How the results depend on the processing

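Of 49 alternative values, 31 stayed within their limits and 18 moved. The limits were the reported 95% interval for shares and medians and a fixed ratio for counts, wide enough to take in 5012 members. A change of direction was not assessed. The number of members ran between 2994 and 5012 and the number of genes between 2709 and 3767. With a −log10 q of at least 10, 45.4% of sg3 regions at a single gene end were shared (46.5% as reported), the 5′ share was 95.1% (92.9%), the median sg3 width 885 bases (818), the median sg3 fold 6.48 (5.88), the summit distance 30.0 bases (34.0) and the share wider in sg3 93.5% (91.6%). With lists of equal length, 52.4% were shared, the 5′ share was 93.9%, the fold 6.01 and the share wider in sg3 92.9%. With 1 or more V2 partners 51.8% were shared. With a window of 2.5 kb the 5′ share was 88.0%, the fold 5.67, the summit distance 38.0 bases and the share wider in sg3 88.1%. In alternatives chosen after seeing the data, the share of sg3 summits 200 to 500 bases downstream (52.2%) was 54.8% with the stricter −log10 q, 39.6% with the window of 2.5 kb, which adds summits farther out, and 55.1% over genes whose RefSeq start is the outer end. Other causes were not tested. No paired analysis was possible because each arm has 1 ChIP library. Read depth is unknown, so depth and arm cannot be told apart as the source of wider sg3 regions.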
